A study of Mus musculus with 8 samples.

Results

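The R-spondin genes (Rspo1, Rspo2, Rspo3 and Rspo4), the genes of their receptors (Lgr4, Lgr5 and Lgr6) and 3 genes that restrain Wnt signaling (Znrf3, Rnf43 and Notum) were followed in notochord-derived cells (NDCs) of the mouse before and after the notochord becomes the nucleus pulposus (NP), the gel-like core of the intervertebral disc. These 10 genes, out of 43346 gene identifiers counted, were chosen by name for their place in the pathway, with earlier results of these data known. All 8 samples came from Shh-cre;ROSA:YFP mice, in which Cre made from the Shh gene switches on a yellow fluorescent protein (YFP) in cells that express Shh and in all their descendants, so that floor plate and gut cells carry the label as well as the notochord. The E12.5 group was 4 litters (NDP10.2, NPD3, NPD4 and NPD9.2) at embryonic day 12.5, from which intact notochords were dissected and put straight into TRIzol. The P0 group was 4 other litters on the day of birth (NPD26, NPD27, NPD28 and NPD30), from which NP cells were shaken out of opened discs and the YFP-positive ones sorted. Each sample pooled the animals of 1 litter, no other treatment was given, and stage and way of isolation cannot be told apart.

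R-spondins are secreted proteins that make cells more sensitive to Wnt ligands. Znrf3 and Rnf43 are membrane ubiquitin ligases that remove Frizzled receptors, the receptors of Wnt, from the cell surface, and an R-spondin that bridges one of these ligases to an Lgr receptor takes the ligase away and leaves Frizzled in place. Znrf3, Rnf43 and Notum, a secreted enzyme that strips the lipid from Wnt proteins, are induced by Wnt signaling in many tissues and so close a negative feedback loop, and Lgr5 is a Wnt target best known as a marker of intestinal stem cells. The notochord is known foremost as a source of Shh for the neural tube and the sclerotome around it.

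RNA-Seq reads counted on genes numbered 4442775 to 7180221 per sample at E12.5 and 6371842 to 8904050 at P0. Abundance is given as CPM, the counts of a gene scaled to the size of its library by the TMM method, on which 3 counts equal 0.353 to 0.738 CPM, a limit that covers counting error only. E12.5 NDP10.2 and NPD9.2 stood apart, with 22.6% and 24.6% of the tallied reads on genes, against 32.6% and 33.7% in the other E12.5 litters and 30.9% to 34.8% at P0, and with 16.3% and 17.5% ambiguous, against 7.07% to 11.6% in the other 6 litters. The notochord gene T was between 242 and 942 CPM in E12.5 litters and between 574 and 2323 in P0 litters, whereas Noto, an early notochord marker, was not detectable at this depth (0 to 3 counts in every litter). Markers of other cells moved with stage. The 7 sclerotome genes summed to 158 to 225 CPM at E12.5 and 12.9 to 27.7 at P0, with 7 of 7 significantly lower, and the 7 muscle genes to 617 to 2680 against 17.7 to 78.7, with 6 of the 6 tested lower. The 6 erythroid genes summed to 9386 to 46278 CPM at E12.5 and 330 to 1076 at P0, with 4 of 6 lower. The 10 leukocyte genes summed to 58.1 to 173 CPM at E12.5 and 676 to 6201 at P0, with 10 of 10 significantly higher. The 7 osteoblast genes summed to 30.0 to 88.2 against 341 to 714 CPM, with 5 of the 6 tested higher. Of these, Ibsp, a bone matrix gene, was at most 0.390 CPM at E12.5 and at least 245 at P0. Runx2 overlapped, at 25.0 to 81.4 and 23.4 to 50.8 CPM. The part of these cells in the results was not tested, and in such bulk samples fewer cells of a type and less RNA per cell cannot be told apart.

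The study asked how signaling changes while the NP forms. At P0 compared to E12.5, mRNA abundance was significantly lower for the ligands Rspo1 (4.45-fold) and Rspo3 (3.16-fold) and for the receptor Lgr4 (2.09-fold), and significantly higher for the receptor Lgr6 (7.83-fold). Rspo2, Lgr5, Znrf3, Rnf43 and Notum did not pass the test, and Rspo4 had too few reads to be tested. Of the 9 genes tested, 4 were called at an adjusted p under 0.05 by edgeR's quasi-likelihood test, 3 lower and 1 higher, beside 27.9% of all 15467 tested genes (12.0% lower and 16.0% higher). Their median log2 fold change was -0.93, beside 0.04 over all tested genes. In 5 of the 9 the litters of the stages did not overlap in CPM, as in 29.9% of all tested genes. The filter on low counts asked for 1.54 CPM, before TMM scaling, in at least 4 litters. Of the 4 called genes, Rspo3 and Lgr4 reached it in every litter, whereas Rspo1 had a complete stage only at E12.5 and Lgr6 only at P0, each the stage in which it was higher, so that the counts and the median are a description of the genes that passed. The 4 calls were close to the threshold: with each litter left out in turn, edgeR called 0 to 4 of the 9, namely 0 without E12.5 NPD3 (5 had an unadjusted p under 0.05) and 0 without E12.5 NPD9.2 (6 had), each beside 22.9% of all genes tested in that fit, 1 without E12.5 NDP10.2, beside 24.4%, and 2 without P0 NPD27 or without P0 NPD28, beside 23.0% and 24.3%. Without both NDP10.2 and NPD9.2 it called 0 of the 9 (2 had an unadjusted p under 0.05), beside 15.2%. The shares beside these counts are of calls at an adjusted p under 0.05. The share of all genes at an unadjusted p is not given, so the unadjusted counts cannot be set against it. DESeq2 called 5 of the 9, beside 33.5% of its tested genes, and limma-voom 4 of the 9, beside 26.3%. All 9 directions held under every scaling and tool tried and with no filter, and the 5 genes left by a filter of at least 10 counts in every sample (Rspo2, Rspo3, Lgr4, Znrf3 and Rnf43) held theirs.

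**Figure D1:**
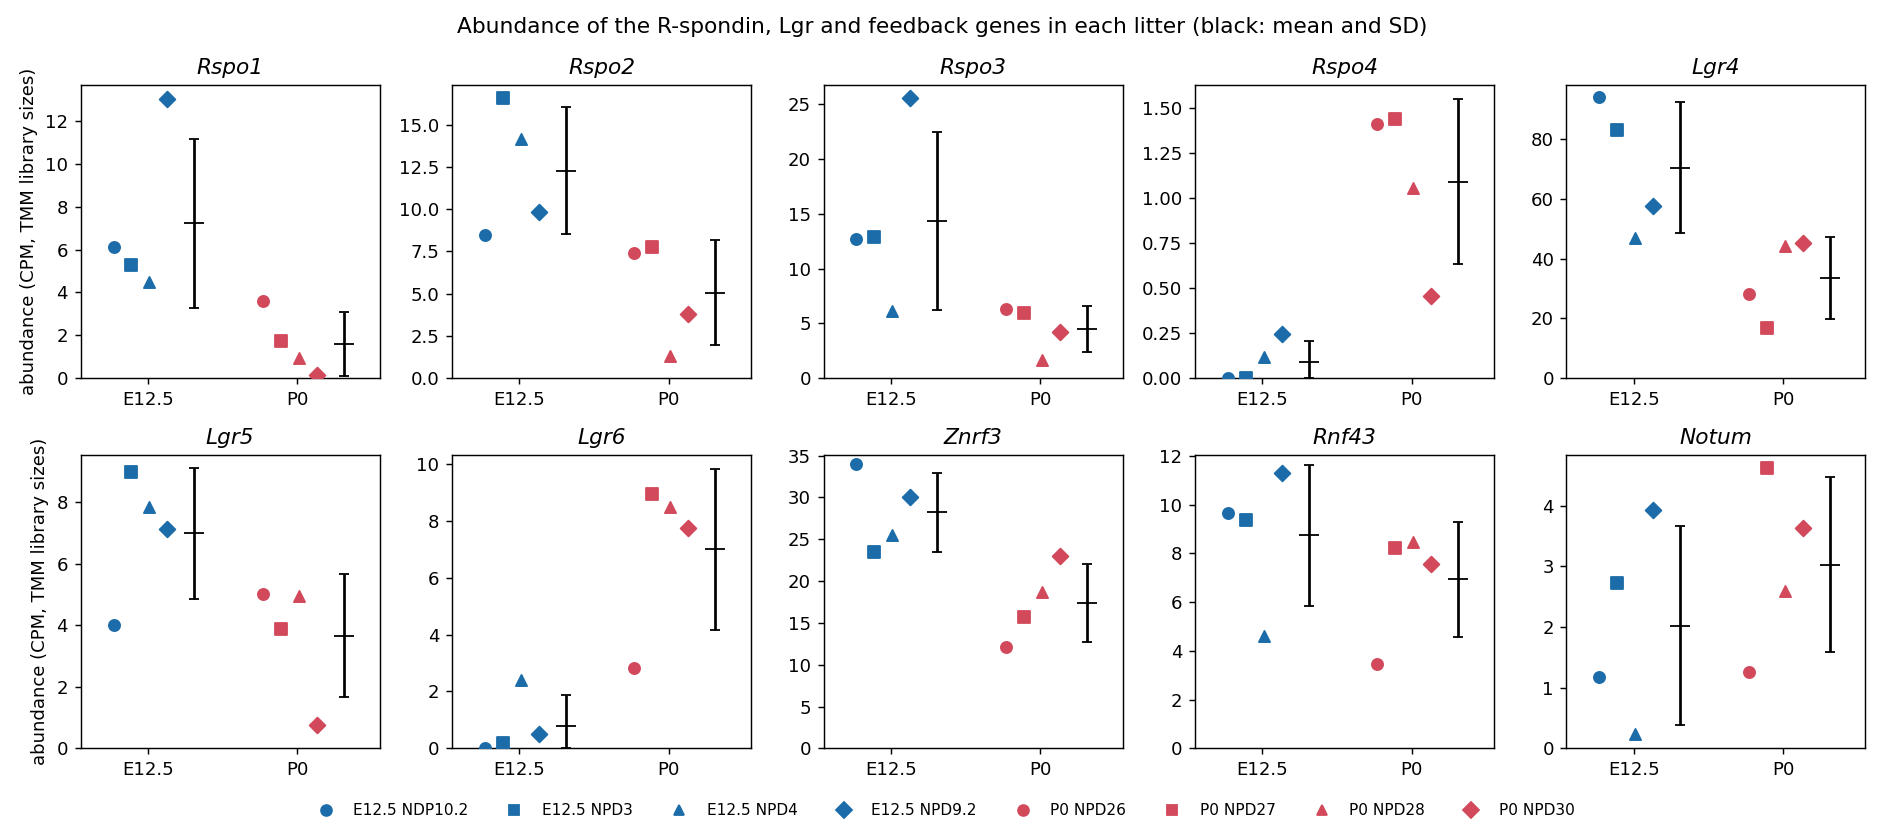
Abundance of each of the 10 genes in CPM (vertical axes, linear, each with its own scale from 0) in the 4 E12.5 litters (blue) and the 4 P0 litters (red), with 1 symbol per litter and the mean and SD in black (bars end at 0 where the SD is larger than the mean). Rspo1, Rspo2, Lgr4 and Znrf3 have every E12.5 litter above every P0 litter, Lgr6 and Rspo4 have the reverse, and the other 4 genes overlap.

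Among the ligands, Rspo1 (chr4:124986430-125009099, plus strand, GRCm38) had the larger fold difference of the 2 R-spondin genes called, and it passed the filter through its E12.5 litters, where it was higher (P0 counts of 23, 12, 8 and 1). Its abundance was 6.13, 5.27, 4.47 and 13.0 CPM at E12.5 (litters NDP10.2, NPD3, NPD4 and NPD9.2, the order used for every gene), and 3.62, 1.73, 0.942 and 0.152 CPM at P0 (litters NPD26, NPD27, NPD28 and NPD30). The stages did not overlap, NPD9.2 stood highest at E12.5, and the P0 litters spread over a 23.9-fold range down to a single read in NPD30. The means were 7.23 ± 3.93 and 1.61 ± 1.48 CPM (SD, n = 4 each), a log2 fold change of -2.15 (SE 0.72, 95% interval -3.75 to -0.56, adjusted p = 0.0462 by edgeR). The call was lost without any one of NDP10.2, NPD3, NPD9.2, NPD27, NPD28 or NPD30 (log2 fold changes of -2.32 to -1.75, adjusted p of 0.0538 to 0.135), and without NPD26 the value was -2.89.

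Rspo3 (chr10:29452416-29535867, minus strand), an R-spondin needed for blood vessels of the placenta in the mouse embryo, had the highest level per kilobase of the R-spondin genes at E12.5. Its abundance was 12.7, 12.9, 6.17 and 25.6 CPM over the E12.5 litters, against 6.29, 5.91, 1.65 and 4.24 CPM over those of P0. The lowest E12.5 litter, NPD4, lay just under the highest P0 litter, NPD26, so the stages overlapped. The means were 14.3 ± 8.12 and 4.52 ± 2.11 CPM, a log2 fold change of -1.66 (SE 0.52, 95% interval -2.80 to -0.51, adjusted p = 0.0351 by edgeR). The call was lost without any one of NDP10.2, NPD3, NPD9.2, NPD28 or NPD30 (log2 fold changes of -1.75 to -1.26, adjusted p of 0.0539 to 0.114) and with limma-voom (adjusted p = 0.0626).

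Rspo2 (chr15:43020794-43170826, minus strand), an R-spondin known for its part in limb and lung growth, was 8.49, 16.6, 14.1 and 9.84 CPM over the E12.5 litters, and it was 7.39, 7.79, 1.29 and 3.79 CPM over those of P0. Like Rspo1 it had a complete stage on the filter only at E12.5. Every E12.5 litter was above every P0 litter, with NDP10.2 at 8.49 and NPD27 at 7.79 the nearest. The log2 fold change was -1.28 (SE 0.52, 95% interval -2.42 to -0.15), and the adjusted p of 0.0873 by edgeR missed the threshold. It passed with DESeq2 (adjusted p = 0.0494), limma-voom (0.0429), no filter on low counts (0.044) and libraries thinned to the smallest (0.0336).

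Rspo4 (chr2:151842927-151874668, plus strand), known for its part in nail growth, was at the limit of detection. It had 0, 0, 1 and 1 counts at E12.5, litter by litter, against 9, 10, 9 and 3 at P0. The P0 level was 1.09 ± 0.46 CPM, and the E12.5 litters were all under the limit that 3 counts set. The summed counts, 31 at P0 and 2 at E12.5, give a ratio of 11.9 once scaled to library size, with an exact 95% interval of 3.02 to 102 that covers counting error only. A fit without the filter on low counts gave an adjusted p of 0.127 by edgeR.

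At P0 the ligands varied together among the litters. NPD26 and NPD27 were above NPD28 and NPD30 for Rspo1, for Rspo2 and for Rspo3, and the order was the reverse for Lgr4 and Znrf3, with NPD26 and NPD27 below NPD28 and NPD30. The muscle sums of NPD26 and NPD27 were 65.4 and 78.7 CPM, against 28.7 in NPD28 and 17.7 in NPD30, and the sums of the 7 endothelial genes were 59.1 and 125 CPM, against 40.5 and 28.0. The sclerotome sums were 27.7 and 26.8 CPM, against 12.9 and 25.6. The erythroid sums did not follow, at 506 and 1076 CPM, against 330 and 639. The sums of the 6 chondrocyte genes went with Lgr4 and Znrf3, at 1294 and 1094 CPM, against 3675 and 4097. T did so too, at 1007 and 574 CPM, against 1372 and 2323. Other sums did not split the litters in this way. They were the leukocyte (4731 and 5509 CPM, against 6201 and 676), neural tube (319 and 207, against 167 and 324) and osteoblast sums (341 and 547, against 414 and 714). At E12.5 the litter with the most Rspo1 and Rspo3, NPD9.2, also had the highest muscle sum (2680 CPM) and erythroid sum (46278 CPM), and the litter with the least, NPD4, had the lowest muscle sum (617 CPM). The sclerotome sum was likewise highest in NPD9.2 (225 CPM) and lowest in NPD4 (158 CPM). The endothelial sum went the other way and was highest in NPD4 (159 CPM). Rspo2 did not follow Rspo1 and Rspo3 at E12.5. It was 14.1 CPM in NPD4 and 9.84 in NPD9.2, with 8.49 in NDP10.2 and 16.6 in NPD3. These patterns were noticed in the values and carry no test, and the part of those cells in the ligands' levels was not tested.

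Of the 3 receptor genes, Lgr4 was called lower at P0 and Lgr6 higher, and Lgr5 did not pass the test. Lgr4 (chr2:109917647-110014257, plus strand), the most widely expressed Lgr receptor in the mouse, was 94.1, 82.9, 46.8 and 57.5 CPM over the E12.5 litters, and it was 28.0, 16.7, 44.3 and 45.3 CPM over those of P0. The stages did not overlap, with NPD4 at 46.8 and NPD30 at 45.3 the nearest. The means were 70.3 ± 21.9 and 33.6 ± 13.8 CPM, a log2 fold change of -1.06 (SE 0.35, 95% interval -1.83 to -0.30, adjusted p = 0.0418 by edgeR). The call was lost without any one of NDP10.2, NPD3, NPD9.2, NPD26 or NPD27 (log2 fold changes of -1.19 to -0.83, adjusted p of 0.0525 to 0.106).

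Within each stage Lgr4 put the litters in the order in which T, the transcription factor that defines the notochord, put them. T was 942, 790, 242 and 362 CPM over the E12.5 litters, and it was 1007, 574, 1372 and 2323 CPM over those of P0. Of the 10 genes only Lgr4 had that order in both stages, and 138 of the 15467 tested genes (0.892%) had it. Between stages the levels parted: per 100 CPM of T, the E12.5 litters held 9.99 to 19.4 CPM of Lgr4 and the P0 litters 1.95 to 3.23. This ratio depends on the choice of T. Shh went from 420 to 1348 CPM at E12.5 to 0.157 to 11.8 at P0, and Foxa1 from 70.0 to 239 CPM to 18.6 to 52.3. At P0 both put NPD26 below NPD27, unlike T and Lgr4, whereas Foxa2, Krt8, Krt18, Krt19, Car3 and Cd24a put NPD26 above NPD27. The order is a description over 4 litters a stage and carries no test.

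**Figure D2:**
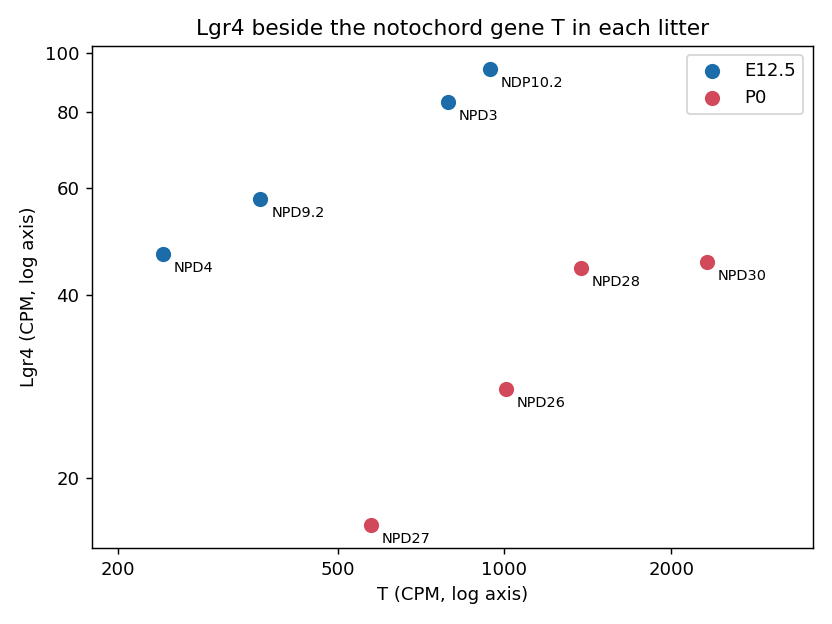
Lgr4 (vertical, CPM, log axis) against T (horizontal, CPM, log axis), with 1 point per litter, E12.5 in blue and P0 in red. Within each stage a litter with more T has more Lgr4, and the P0 litters lie below the E12.5 litters, from 16.7 to 45.3 against 46.8 to 94.1 CPM.

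Lgr6 (chr1:134983301-135105276, minus strand), a receptor known from skin and hair follicle stem cells, was the gene of the 10 that passed the test in the upward direction. Its abundance was 0, 0.195, 2.42 and 0.492 CPM in the E12.5 litters (0, 1, 20 and 2 counts) and 2.83, 8.94, 8.48 and 7.73 CPM in the P0 litters (18, 62, 72 and 51 counts). The stages did not overlap, with NPD4 at E12.5 and NPD26 at P0 the nearest litters. The means were 0.776 ± 1.11 and 6.99 ± 2.82 CPM, a log2 fold change of 2.97 (SE 0.84, 95% interval 1.12 to 4.82, adjusted p = 0.0223 by edgeR). Without NPD4 the log2 fold change was 4.83, and the call was lost without NPD3 (2.64, adjusted p = 0.0626) or without NPD9.2 (2.78, adjusted p = 0.0645).

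NPD4, the E12.5 litter with most of the stage's Lgr6 reads, also had the highest sum of neural tube genes (1022 CPM against 248 to 358 in the other E12.5 litters), mainly the neuronal genes Tubb3 (576 CPM) and Elavl3 (289 CPM). Among the other genes of that list, Sox2 was highest in NPD4, whereas Pax6, Pax7, Lmx1a and Nes were lowest there among the E12.5 litters. At P0, where Lgr6 was 2.83, 8.94, 8.48 and 7.73 CPM (NPD26, NPD27, NPD28 and NPD30), the leukocyte sum was 4731, 5509, 6201 and 676 CPM and the osteoblast sum 341, 547, 414 and 714 CPM in the same order, although these cells were sorted for YFP. The litter with the least Lgr6, NPD26, had the lowest osteoblast sum, and the litter with the highest osteoblast sum, NPD30, had less Lgr6 than NPD27 and NPD28. NPD27 and NPD28, the highest in Lgr6, had the highest leukocyte sums, whereas NPD30 had the lowest leukocyte sum and more Lgr6 than NPD26. The neural tube sums of NPD27 and NPD28 were 207 and 167 CPM, against 319 in NPD26 and 324 in NPD30. The part of neurons, leukocytes and osteoblasts in the level of Lgr6 was not tested.

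Lgr5 (chr10:115450311-115587780, minus strand) was 4.01, 8.98, 7.86 and 7.13 CPM over the E12.5 litters, and it was 5.03, 3.89, 4.94 and 0.758 CPM over those of P0. The stages overlapped, and NPD30 lay far below the other P0 litters. The log2 fold change was -0.93 (SE 0.55, 95% interval -2.14 to 0.27, adjusted p = 0.235 by edgeR), so a difference in either direction remains within the interval.

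Counted per kilobase of exon, which allows genes to be compared, Lgr4 made up 87.7% to 97.6% of the abundance of the 3 receptors in the E12.5 litters and 62.8% to 86.5% in the P0 litters. Lgr6 took 0 to 3.89% in the E12.5 litters and between 7.30% and 28.8% in the P0 litters, highest in NPD27, where Lgr4 was lowest. Lgr5 took 2.38% to 8.44% in the former and 0.83% to 8.66% in the latter, ranges that overlap, and with the longest transcript as the length these were 4.30% to 14.6% and 1.54% to 15.0%. The 3 receptors summed to 12.8 ± 3.50 CPM per kilobase at E12.5 and 7.08 ± 2.35 at P0, and the 4 ligands to 10.8 ± 4.33 and 3.75 ± 2.02, levels that are given with no test. Rspo3, Rspo1 and Rspo2 made up 41.0%, 33.5% and 25.2% of the ligands at E12.5 on average, and Rspo4 made up 0.331%. At P0 the averages were 40.4%, 20.3% and 25.2%, and Rspo4 made up 14.1%. The order of Rspo1 and Rspo2 at E12.5 depends on the length, since with the longest transcript Rspo1 made up 30.9% and Rspo2 32.8% at E12.5, and 18.9% and 33.5% at P0.

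Promoter sequences were available in the RefSeq-based table for 5 of the 10 genes, 6 promoters in all, and those of Lgr4 and Lgr6, the receptor genes called in opposite directions, and of Rspo1 and Rspo4, ligands whose litters did not overlap in opposite directions, are shown as the 250 bases before the start of the gene (GRCm38.p6, 5′ to 3′ on the strand of the gene). Capitals mark the CCAAT box (CCAAT, or ATTGG on the other strand) and the GC box (GGGCGG, or CCGCCC on the other strand), short elements common to many promoters.
Lgr4, chr2:109917397-109917646, plus strand: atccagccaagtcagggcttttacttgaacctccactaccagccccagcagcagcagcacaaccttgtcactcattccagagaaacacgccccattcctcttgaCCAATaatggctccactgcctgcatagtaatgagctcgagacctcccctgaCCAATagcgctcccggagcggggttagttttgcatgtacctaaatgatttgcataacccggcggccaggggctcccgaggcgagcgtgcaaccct
Lgr6, chr1:135105277-135105526, minus strand: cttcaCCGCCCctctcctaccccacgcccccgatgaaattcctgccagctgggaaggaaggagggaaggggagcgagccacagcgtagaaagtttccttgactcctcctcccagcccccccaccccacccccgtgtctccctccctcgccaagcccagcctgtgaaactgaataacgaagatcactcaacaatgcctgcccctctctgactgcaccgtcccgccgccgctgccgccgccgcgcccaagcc
Rspo1, chr4:124986180-124986429, plus strand: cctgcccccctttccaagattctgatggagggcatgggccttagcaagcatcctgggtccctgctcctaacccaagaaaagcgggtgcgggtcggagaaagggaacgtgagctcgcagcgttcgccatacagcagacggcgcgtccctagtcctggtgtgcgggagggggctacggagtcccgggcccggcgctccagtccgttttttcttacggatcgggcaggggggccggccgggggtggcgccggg
Rspo4, chr2:151842677-151842926, plus strand: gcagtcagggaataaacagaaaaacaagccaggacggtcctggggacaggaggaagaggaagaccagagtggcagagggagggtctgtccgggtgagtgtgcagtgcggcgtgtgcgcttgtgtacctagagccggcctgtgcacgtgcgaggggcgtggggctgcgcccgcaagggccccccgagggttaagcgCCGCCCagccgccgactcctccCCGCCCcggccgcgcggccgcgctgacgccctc

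The Lgr4 sequence held 2 CCAAT boxes and no GC box, and Lgr6 held 1 GC box and no CCAAT box. Rspo4 held 2 GC boxes, and Rspo1 held neither element. Over the 32851 promoters of the table, 33.8% held a CCAAT box and 32.7% a GC box in the same 250 bases, and the median G and C content was 52.4%, beside 55.6% for Lgr4, 65.2% for Lgr6, 66.8% for Rspo1 and 69.6% for Rspo4. The element bound by the Tcf and Lef factors of Wnt signaling was searched as CTTTGAT, or ATCAAAG on the other strand, in the whole of each promoter as the table gives it, from before to just after the start. It was in 0 of the 6 promoters and in 3.73% of all promoters, and the shorter CTTTGA, which the longer one contains, was in 0 of the 6 and in 16.0% of all. These matches describe the letters of the windows only.

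The ligases and Notum, the genes of the feedback arm, did not pass the test. Znrf3 (chr11:5276324-5444847, minus strand) was 34.0, 23.4, 25.5 and 30.0 CPM over the E12.5 litters, and it was 12.1, 15.7, 18.7 and 23.0 CPM over those of P0. The stages did not overlap, with NPD3 at 23.4 and NPD30 at 23.0 the nearest. The means were 28.2 ± 4.71 and 17.4 ± 4.63 CPM, a log2 fold change of -0.70 (SE 0.27, 95% interval -1.28 to -0.11, adjusted p = 0.0756 by edgeR), which passed the threshold with upper quartile normalization (adjusted p = 0.0397) and without NPD30 (-0.90, adjusted p = 0.0364).

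Rnf43 (chr11:87662722-87735539, plus strand), the other ligase, was 9.67, 9.37, 4.59 and 11.3 CPM over the E12.5 litters, and it was 3.46, 8.22, 8.48 and 7.58 CPM over those of P0. NPD4 and NPD26 were the low litters of their stages and the stages overlapped. The log2 fold change was -0.32 (SE 0.42, 95% interval -1.24 to 0.59, adjusted p = 0.608 by edgeR). Per kilobase of exon Znrf3 made up 67.5% to 82.2% of the ligases in the E12.5 litters and 61.4% to 74.4% in the P0 litters, ranges that overlap.

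Notum (chr11:120653788-120661175, minus strand) was 1.18, 2.73, 0.242 and 3.93 CPM over the E12.5 litters, and it was 1.26, 4.61, 2.59 and 3.64 CPM over those of P0. The E12.5 litters spread over a 16.3-fold range from 2 counts in NPD4 to 16 in NPD9.2. The log2 fold change was 0.62 (SE 0.74, 95% interval -1.02 to 2.26, adjusted p = 0.576 by edgeR). Of the exon bases of Notum, 29.4% are shared with the antisense gene Notumos and 8.72% with Myadml2os, and whether reads were counted by strand is not given in the sources used here, so its level is uncertain. The other gene with shared exon bases was Rspo3, at 13.1% with the antisense Gm48159, which had 0 counts.

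**Figure D3:**
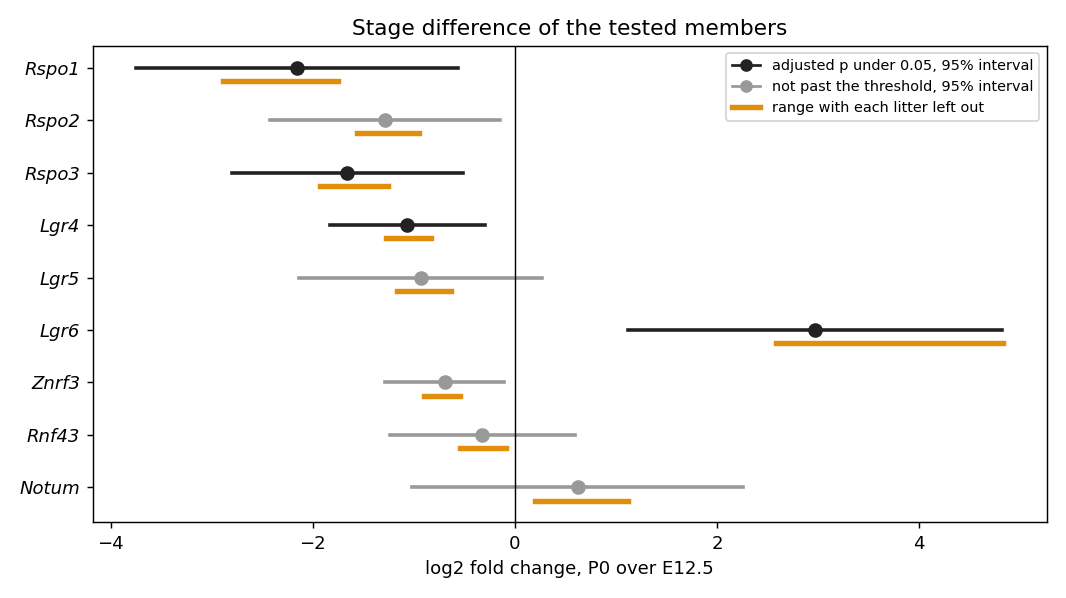
Log2 fold change of P0 over E12.5 (horizontal axis) for the 9 tested genes, with the 95% interval (black where the adjusted p was under 0.05, grey otherwise) and, under it in orange, the range of the value with each litter left out. The orange range stays on 1 side of 0 for all 9 genes, and it is widest for Lgr6, from 2.58 to 4.83.

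By level, Lgr4 was the first of the 10 genes at both stages, at 12.0 CPM per kilobase at E12.5 and 5.71 at P0. The order at E12.5 went on with Rspo3 (4.64), Rspo1 (3.73), Znrf3 (3.58), Rspo2 (2.4), Rnf43 (1.33), Notum (0.840), Lgr5 (0.681), Lgr6 (0.113) and Rspo4 (0.0387). At P0 the order after Lgr4 was Znrf3 (2.20), Rspo3 (1.46), Notum (1.26), Rnf43 (1.06), Lgr6 (1.02), Rspo2 (0.991), Rspo1 (0.831), Rspo4 (0.461) and Lgr5 (0.356). Neighbours in these orders overlapped over the litters in every case but Lgr5 and Lgr6 at E12.5, although Lgr4 was above the next gene within each of the 4 litters of both stages. With the longest transcript as the length, the levels of Rspo2 and Znrf3 at E12.5 and of Lgr5 and Rnf43 at both stages moved beyond their SD, and Lgr4 kept the first place.

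**Figure D4:**
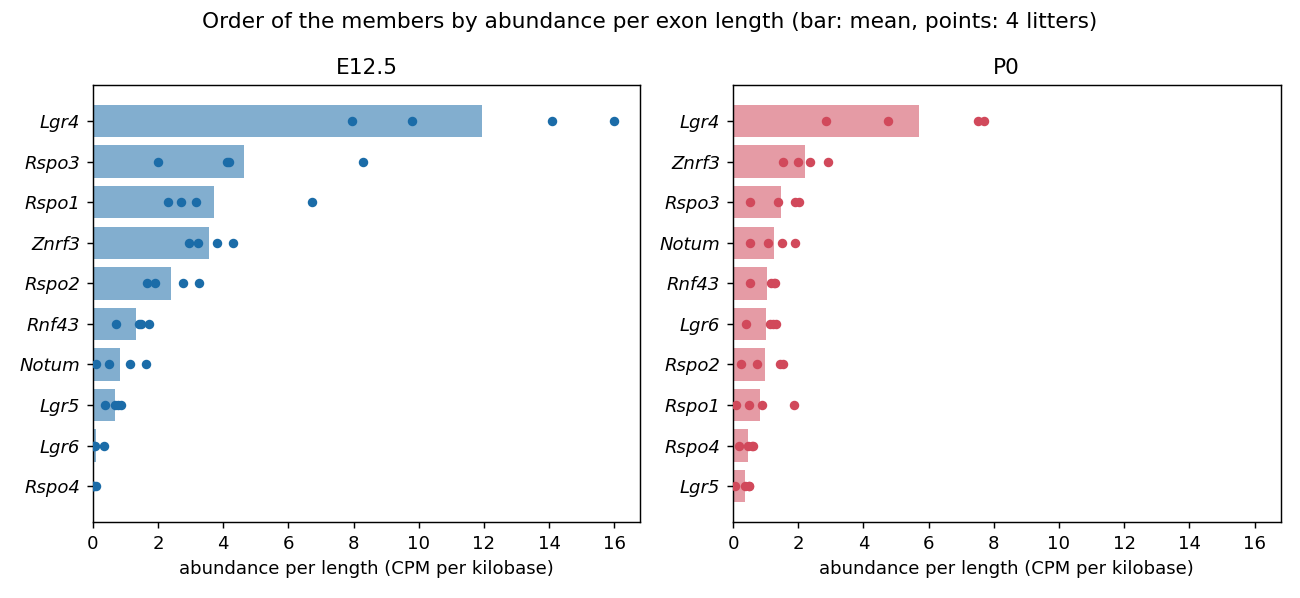
Mean abundance per kilobase of exon (bars, horizontal axis from 0, CPM per kilobase) and the 4 litters (points) of the 10 genes, ordered by their mean at E12.5 (left) and at P0 (right). Lgr4 is first in both orders, at 12.0 and 5.71, and Znrf3 stands at 3.58 and 2.20.

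The genes whose pattern over the 8 samples was most like that of the 2 genes with the highest mean level per kilobase of exon over all litters, Lgr4 (8.83) and Rspo3 (3.05, with Znrf3 next at 2.89), were named by their Pearson correlation of log2 CPM, given with no test since stage and libraries are shared by all points. In CPM, or with the longest transcript as the length, Znrf3 was above Rspo3. For Lgr4 they were BC085271 (r = 0.989), Kat6b, a histone acetyltransferase gene (0.987), and Pcdhga4, a protocadherin gene (0.985). For Rspo3 they were Sema5b, a semaphorin gene (0.988), Cacna1s, a calcium channel gene of skeletal muscle (0.981), and Osr1, a transcription factor gene of embryonic mesenchyme (0.971).

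Other genes of the Wnt pathway were grouped in 5 lists with 68 genes, of which 60 were tested, 26 were significantly lower at P0 and 4 significantly higher by edgeR's quasi-likelihood test, beside the 12.0% and 16.0% of all tested genes given above. Their median log2 fold change was -0.89. Of the 30 called genes 21 reached the filter on low counts in every litter of both stages, and 9 had a complete stage only where they were higher, 8 at E12.5 (Fzd10, Wnt7b and Sp5 among them) and 1 at P0 (Wnt16). The counts and medians of the lists, and their order, are therefore a description of the genes that passed. The lists were also chosen with earlier results of these data known. Receptor genes had the largest share of lower genes among the 5 lists, with 8 of 12 Frizzled and Lrp genes lower, 0 higher and a median of -1.67. Fzd2 fell from 163 ± 56.4 to 19.5 ± 6.98 CPM (log2 fold change -3.06, adjusted p = 2.57e-04), Fzd7 from 73.2 ± 15.3 to 36.0 ± 8.58 CPM (-1.02, adjusted p = 0.0108) and Fzd10 from 12.3 ± 6.97 to 0.627 ± 0.673 CPM (-4.27, adjusted p = 0.00418). Without E12.5 NDP10.2 and NPD9.2 the calls of Fzd7 (adjusted p = 0.0812) and Fzd10 (adjusted p = 0.0574) were lost. The coreceptor genes Lrp5 (1.02, adjusted p = 0.0831) and Lrp6 (-0.10, adjusted p = 0.803) did not pass the test. Of the 19 Wnt ligand genes 13 were tested, 7 were lower and 1 was higher, with a median of -1.72. Wnt3, Wnt6, Wnt7a, Wnt7b and Wnt9b had a complete stage on the filter only at E12.5, where they were higher. Wnt10a and Wnt16 had one only at P0. Wnt5a (-1.85) and Wnt7b (-5.36) were named by the rule on the lower side and Wnt16 (3.23) on the higher side.

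Of the 5 lists, the genes of cytoplasmic and nuclear transduction had the median nearest to 0 (-0.30), with 2 of 13 lower and 0 higher. The 2 were Bcl9, a coactivator of β-catenin (-1.50, adjusted p = 0.00191), and Tcf7l1, a mostly repressive Tcf factor (-1.45, adjusted p = 0.037). The Tcf7l1 call was lost without any one of NDP10.2, NPD3, NPD9.2, NPD26, NPD27 or NPD28 (adjusted p of 0.0562 to 0.0918), and without NPD30 its value was -2.14. The gene of β-catenin itself, Ctnnb1, did not pass the test (-0.47, adjusted p = 0.201).

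Of 14 genes known as Wnt targets 13 were tested, 6 were lower and 2 higher, with a median of -0.90. The lower ones included the feedback inhibitor genes Axin2 (-2.84, adjusted p = 5.20e-04), Nkd1 (-3.02, adjusted p = 4.84e-04) and Nkd2 (-1.75, adjusted p = 0.0202), beside which Znrf3, Rnf43 and Notum did not pass the test. The secreted inhibitor genes Dkk1 (1.56, adjusted p = 0.224 by edgeR) and Wif1 (0.51, adjusted p = 0.361) of the same list did not pass either. Both of their values were upward. Whether the feedback genes differ from each other in their change was not tested. Sp5, a zinc finger factor gene, fell from 7.30 ± 6.33 to 0.184 ± 0.219 CPM (-5.19, adjusted p = 0.0027), and the 2 higher genes were Cd44 (3.79) and Myc (1.15), both of which are also controlled by many other signals.

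Of 10 genes for the release of Wnt proteins and their capture at the cell surface 9 were tested, 3 were lower and 1 higher, with a median of -0.49. The glypican genes Gpc3 (1479 ± 576 to 307 ± 174 CPM, log2 fold change -2.27, adjusted p = 0.00367) and Gpc2 (31.6 ± 8.99 to 3.80 ± 0.419 CPM, -3.05, adjusted p = 1.41e-04) were lower. Trabd2b, whose protein cleaves Wnt ligands, was lower as well (-1.90, adjusted p = 0.00481). Sdc4, a syndecan gene, rose from 35.1 ± 16.3 to 136 ± 36.5 CPM (1.96, adjusted p = 0.00385), and Wls, needed for Wnt secretion, did not pass (0.22, adjusted p = 0.538). Lrp5, Lrp6, Ctnnb1, Axin2, Nkd1, Nkd2, Dkk1, Wif1, Trabd2b and Wls fall outside the rule for named genes and were chosen after their values were seen.

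**Figure D5:**
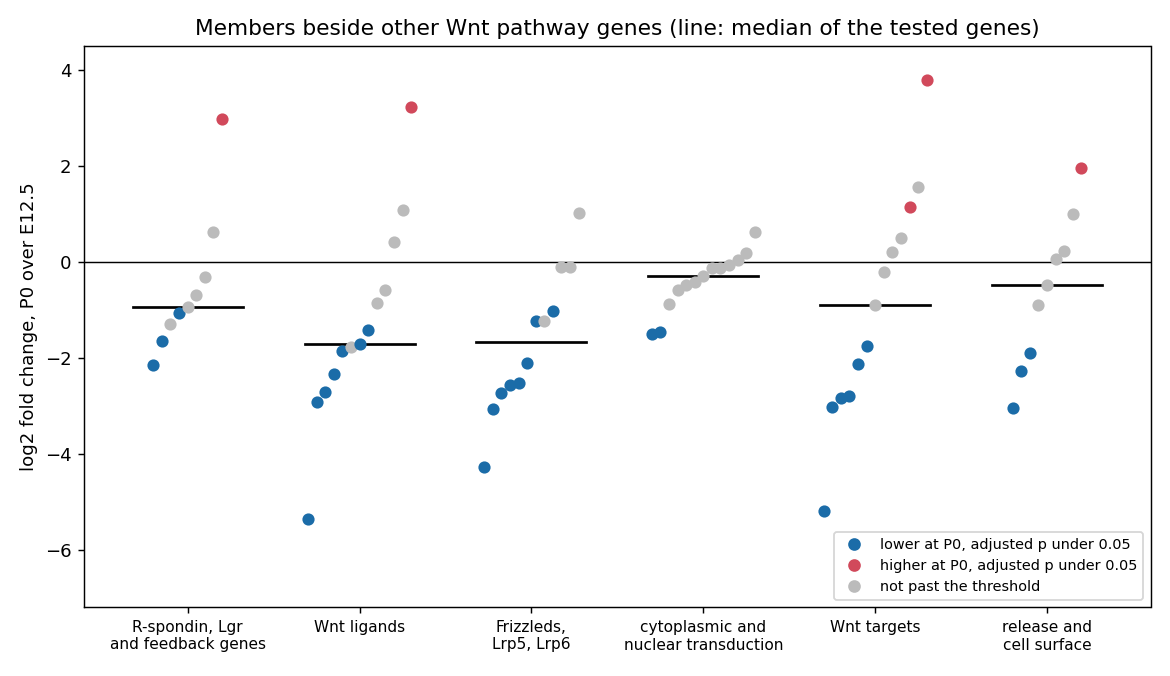
Log2 fold change of P0 over E12.5 (vertical axis) of each tested gene, with the R-spondin, Lgr and feedback genes on the left and the 5 lists of other Wnt pathway genes beside them, blue where significantly lower at P0, red where significantly higher and grey where the test was not passed, and a line at each median. The median is lowest for the Wnt ligands (-1.72) and the receptors (-1.67), and nearest to 0 for the transduction genes (-0.30). The medians describe the genes that passed the filter on low counts, some of them only through the stage in which they were higher.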

How the data were processed

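RNA-Seq was performed on NDCs of 4 E12.5 and 4 P0 litters, the biological replicates, with single-end libraries of the TotalScript kit. The authors aligned the reads with STAR (2.4.0j in the processing notes) to GRCm38, counted them with htseq-count on Gencode M4 genes and deposited the raw counts, not normalized. Tallies that name no gene (65.2% to 77.4% of all) were left out. Counts were normalized by TMM, filtered by filterByExpr (minimum count 10, minimum total 15) and tested in edgeR 4.0.16 (R 4.3.3) by the quasi-likelihood F-test with robust estimates, and the Benjamini-Hochberg adjustment was made over all tested genes. The study used DESeq2, here an alternative. The SE is the size of the log2 fold change divided by the square root of F. Log2 CPM adds a prior count of 2. Exon lengths and positions are from Gencode M21, a later annotation on the same build.

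The genes and lists were chosen with earlier results of these data known. Named from each list were the 2 called genes with the highest mean CPM and the 2 with the largest change among those with a mean log2 CPM of at least 0. Alternatives were DESeq2 1.42.0, limma-voom 3.58.1, other scalings and filters, non-robust estimates, removal of mitochondrial and hemoglobin genes, thinned libraries, a test against a fold change of 2, and litters left out. In simulated data for P0 against E12.5 with 15467 genes, the edgeR test recovered 7.58% of changes of 1 on the log2 scale, 71.6% of 2 and 97.0% of 3. The Schwann cell marker list is not reported here.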

Additional observations from a re-analysis of the deposited data

Results flagged for a closer look

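Each of the 10 genes was examined in each stage for a litter far from the other 3 (Dixon's test), which chance alone does in about 1 of 20 groups, and 3 of the 20 groups held such a litter, all at P0. Lgr5 was 0.11 on the log2 CPM scale in NPD30, against 2.07 to 2.42 in the other P0 litters. Lgr6 was 1.66 on that scale in NPD26, against 3.01 to 3.21. Rnf43 was 1.92 in the same litter NPD26, against 2.98 to 3.14. NPD30 held 5 counts of Lgr5, and NPD26 held 18 counts of Lgr6 and 22 of Rnf43. The direction of the stage difference of all 3 genes was the same with these litters in or out.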

How the results depend on the processing

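No paired analysis was possible because the litters of the stages share no number. No direction of a tested gene of the 10 was reversed under any of the alternatives. The count of calls among the 10 genes was 4 of 9 tested, beside 27.9% of all tested genes. It was 4 to 5 of 9 with DESeq2, limma-voom, DESeq2 size factors, upper quartile normalization, non-robust estimates, removal of mitochondrial and hemoglobin genes, and thinned libraries, beside 26.3% to 33.5% of all tested genes. With no filter it was 5 of 10, beside 15.2%. It was 2 of the 5 genes left with at least 10 counts in every sample (2 lower and 0 higher), where 26.1% of all tested genes were called. It was 0 (0 lower, 0 higher) in edgeR's test against a fold change of 2, which called 12.5% of all genes, and 0 (0 lower, 0 higher) by edgeR without E12.5 NDP10.2 and NPD9.2 together, which called 15.2%. An unadjusted p under 0.05 was reached by 3 and by 2 of the 9 genes in these tests, and with all litters DESeq2 called 5 and limma-voom 4. The unadjusted counts have no share of all genes at that threshold beside them. With each litter left out the count of calls was 0 to 4 (0 to 3 lower, 0 to 1 higher), beside 22.6% to 28.1% of all tested genes. For the Wnt lists the count was 30 (26 lower), 19 (16 lower) against a fold change of 2, 16 lower of 62 tested without NDP10.2 and NPD9.2, and 25 to 32 (21 to 28 lower, 4 to 5 higher) with each litter left out. Of all tested genes, 12.0% were lower with all litters, 5.11% against a fold change of 2 and 6.41% without NDP10.2 and NPD9.2. With each litter left out, 9.46% to 12.0% of all tested genes were lower and 12.9% to 16.0% higher. The causes were not tested. Upper quartile normalization moved the median of all tested genes by -0.15, and no filter moved it by 0.41 with 32299 genes tested. With each litter left out Fzd10 ranged from -5.08 (without NPD27) to -3.81 (without NPD28), Wnt7b from -5.96 to -5.00 and Sp5 from -5.97 (without NPD27) to -4.43 (without NDP10.2), all past the threshold. In the simulated data, changes of 1 on the log2 scale were seldom recovered. The edgeR test called 119 genes there, against 4321 of 15467 in these data. The adjusted threshold was therefore stricter in the simulation, so its recovery cannot be read as that of these data.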
